A study of Homo sapiens with 30 samples.

Results

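NEAT1, MALAT1, KCNQ1OT1, MIAT and TUG1 are long noncoding RNAs (lncRNAs) best known for staying in the nucleus, and each was followed here through the cytosol and the stress granule fraction of one kind of human cell. The members were taken by gene symbol from the deposited table of read counts. Each symbol had 1 row, so they make 5 of the 60664 genes counted. RNA was sequenced from HEK293 cells, an established human embryonic kidney line, in its Flp-In T-REx form, in which tetracycline switches on an inserted gene. Both lines carry a stable transgene for TIA1a tagged with GFP, in its wild-type form (WT) or carrying the mutation behind a muscle disease, Welander distal myopathy (WDM). TIA1 is a protein of stress granules that binds RNA. Each genotype is 1 line, so a difference between WT and WDM cannot be told apart from a difference between the lines. There were 10 groups of 3 libraries. Cytosol RNA came from 6 groups (18 libraries): WT and WDM cells left untreated, given tetracycline, or given tetracycline and then 0.5 mM sodium arsenite, an oxidative stressor, for 60 min. The granule fraction came from 4 groups (12 libraries): WT and WDM cells with tetracycline, without or with the same arsenite treatment. That fraction is the pellet of a fast spin of the lysate, after a slow spin had removed a first pellet, pulled down through the GFP tag. The fraction from cells without arsenite is called granule here because its labels do so.

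A lncRNA is transcribed and often spliced like a messenger RNA but is not known to act by encoding a protein. NEAT1 is the scaffold on which paraspeckles, small bodies of the nucleoplasm, are built. MALAT1 gathers in nuclear speckles, which store splicing factors. KCNQ1OT1 is transcribed antisense within KCNQ1 from the paternal chromosome and silences imprinted neighbours. MIAT holds repeats of the branch point motif bound by the splicing factor SF1. TUG1 is found in nucleus and cytoplasm. TIA1 binds stretches of RNA rich in U, and stress granules are assemblies of stalled messenger RNAs and proteins in the cytoplasm.

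The genes lie on 2 chromosomes of GRCh38. NEAT1 (ENSG00000245532) spans chr11:65422774-65445540 on the plus strand. MALAT1 (ENSG00000251562) lies downstream of it on the same strand at chr11:65497688-65506516. KCNQ1OT1 (ENSG00000269821) spans chr11:2608328-2699994 on the minus strand, wholly within the span of KCNQ1 on the opposite strand, with 0.131% of its exon sequence in exons of KCNQ1. MIAT (ENSG00000225783) spans chr22:26646411-26676475 and TUG1 (ENSG00000253352) spans chr22:30969245-30979395, both on the plus strand. GENCODE v44 types the first 4 as lncRNA and TUG1 as protein coding. The library kit keeps strand, but whether the counting used it is not given in the sources used here, so reads of KCNQ1OT1 and of unspliced KCNQ1 may not be told apart. The same holds for MALAT1 and the antisense TALAM1, which covers 77.8% of its exon sequence and has no row in the table.

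Because TIA1 binds U-rich RNA, the stretch richest in T (U in the RNA) was taken from each member that could be tested. Runs of 5 or more T are in capitals, and all are printed 5′ to 3′ on the gene's strand from the genome sequence (hg38).
NEAT1, chr11:65432645-65432704: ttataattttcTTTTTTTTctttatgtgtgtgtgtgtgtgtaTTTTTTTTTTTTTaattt
MALAT1, chr11:65500784-65500843: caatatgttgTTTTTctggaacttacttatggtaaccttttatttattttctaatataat
KCNQ1OT1, chr11:2654981-2655040: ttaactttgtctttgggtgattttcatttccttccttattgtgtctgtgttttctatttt
TUG1, chr22:30972668-30972727: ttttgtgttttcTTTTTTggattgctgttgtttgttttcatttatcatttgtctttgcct
The NEAT1 window held 43 T in 60 bases and 2 such runs. The TUG1 window held 39, the KCNQ1OT1 window 36 with no run of 5, and the MALAT1 window 31. Among the 18092 genes of the granule and cytosol test with an exon model, the median was 32 T, and the 4 windows stood above 96.3%, 87.1%, 71.9% and 38.1% of the genes. On the longest annotated transcript alone, the richest TUG1 window held 32 T, above 52.7% of genes, while NEAT1, KCNQ1OT1 and MALAT1 kept 43, 36 and 31. A longer sequence offers more windows. Exon length was 22767 bases for NEAT1 and 92625 for KCNQ1OT1, against a median of 4566, and the ranks do not allow for it.

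Over whole exon sequences the letters TTTTT (gene strand, overlapping matches counted) gave another order. MALAT1 held 105 of them, 10.1 per kb, NEAT1 157 (6.90 per kb) and TUG1 69 (6.80 per kb), against a median of 3.37 per kb over all those genes, of which 88.9% held at least 1. MIAT had 4.59 per kb. KCNQ1OT1, the longest at 92625 exon bases, had 2.36 per kb, below the median. CCTCCC, a letter run of C-rich elements described in nuclear RNAs, occurred 0.197 to 0.594 times per kb in the 5 members against a median of 0.639, and 82% of all genes held it.

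The hallmark repeats of MIAT are shown next, with TACTAAC in capitals, in the stretch of its exon sequence that held the most of them.
MIAT, chr22:26672028-26672230: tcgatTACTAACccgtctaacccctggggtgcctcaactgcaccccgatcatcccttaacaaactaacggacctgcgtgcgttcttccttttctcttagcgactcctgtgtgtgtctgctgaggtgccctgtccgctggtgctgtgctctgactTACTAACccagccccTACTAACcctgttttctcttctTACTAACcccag
The window held 4 copies and the whole exon sequence 7, while NEAT1 had 1, KCNQ1OT1 3, and MALAT1 and TUG1 none. Of all genes, 11.8% held at least 1 copy, and MIAT stood above 99.3% of them in copies per kb.

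NEAT1 and MALAT1 lack an ordinary poly(A) tail at the 3′ end of their long forms. Each ends after cleavage by the enzyme that processes transfer RNAs, and its last A-rich stretch folds back onto U-rich stretches to form a protective triple helix. The last 110 bases of NEAT1 and the 110 bases of MALAT1 up to the small RNA annotated behind them share 2 runs, shown in capitals. These windows were chosen after the sequences had been looked at.
NEAT1, chr11:65445431-65445540: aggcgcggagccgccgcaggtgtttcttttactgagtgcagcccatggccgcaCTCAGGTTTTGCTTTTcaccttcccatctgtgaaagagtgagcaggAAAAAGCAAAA
MALAT1, chr11:65506007-65506116: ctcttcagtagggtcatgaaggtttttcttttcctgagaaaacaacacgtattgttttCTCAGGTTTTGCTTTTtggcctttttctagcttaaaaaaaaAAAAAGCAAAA
The shared runs were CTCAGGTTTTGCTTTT, 16 bases, and AAAAAGCAAAA, 11 bases. A search of both exon sequences found a longest common run of 26 bases elsewhere, and the MALAT1 copy of that run lies past the end of the gene as the table gives it.

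Total counts per library ran from 5906167 to 27419145. Of 10 genes that mark HEK293 cells, 8 had a median of at least 1 CPM (the gene's share of the library's total count, times 1000000). Of the marker genes of other tissues, 0 of 5 for blood, 0 of 3 for liver, 1 of 4 for muscle and 3 of 4 for fibroblasts reached that median; the fibroblast genes summed to 4.45 to 16.7 CPM. TIA1 had 3 counts over all libraries, at most 0.0738 CPM, although both lines carry a TIA1 transgene. Its row is therefore not read here as the level of TIA1 RNA, and induction of the transgene could not be checked in this table. Replicates are separate samples by their labels, which do not say that they came from separate cultures, so p-values measure the spread between these samples. Among the cytosol libraries with tetracycline, 2 stood apart for the members: WT replicate 1 was high and WDM replicate 2 was low for each of the 4 members that could be tested. The summed messenger RNAs of 14 nuclear speckle proteins were also highest in that WT library (3205 CPM against 2629 and 2816). They were lowest in that WDM library (2518 against 3038 and 2856). The sum of 11 other lncRNAs of the nucleus was also highest in that WT library, but by little (313 CPM against 307 and 293). It was lowest in that WDM library (287 CPM against 296 and 325). The summed level of 14 small nuclear and nucleolar RNAs had another order, at 91.5 CPM against 81.6 and 100.7 in WT and at 118 CPM against 114 and 89.4 in WDM. Sums for genes of paraspeckle proteins and of nuclear RNA decay went the other way. They were lowest in that WT library (3932 CPM against 4076 and 4248, and 1083 against 1240 and 1252). They were highest in that WDM library (3998 against 3899 and 3723, and 1074 against 1028 and 1010). Genes of nuclear retention and export were lowest in that WT library (4020 against 4093 and 4265). In that WDM library they lay in between (3933 against 4012 and 3767). The part of nuclear RNA in these libraries was not tested.

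NEAT1 had the most counts, 485708 in all and 579 to 64021 per library. MALAT1 had 231717 (1775 to 23829), TUG1 56832 (638 to 5895) and KCNQ1OT1 24156 (56 to 3272). MIAT had 150 counts in all, between 0 and 12 per library, at most 1.08 CPM. Since a count of 0 allows up to 3 counts, 0.109 to 0.508 CPM depending on the library, MIAT lay near that limit in most libraries. It did not pass the filter on low counts in any test, and no difference of MIAT was detectable at this depth. The 4 other members passed in every test. These limits cover counting error only.

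Levels of different genes can be compared only per length of exon sequence. In the granule groups, mean CPM per kb was 67.8 to 100.3 for NEAT1, 43.9 to 84.4 for MALAT1, 8.97 to 22.2 for TUG1, 0.838 to 1.13 for KCNQ1OT1 and 0.0111 to 0.0267 for MIAT. In the cytosol groups MALAT1 stood first at 21.2 to 45.2 CPM per kb, followed by TUG1 at 7.58 to 10.8, NEAT1 at 3.40 to 9.43, KCNQ1OT1 at 0.0827 to 0.265 and MIAT at 0.0142 to 0.0359. NEAT1 thus ran below TUG1 per length in cytosol by group means in every treatment and above MALAT1 in granules in 3 of 4 groups. These values divide by all exon bases of a gene, 22767 for NEAT1. MALAT1 was divided by 10434 bases, though the gene as the table gives it spans 8829, so its values are set low. In granules of WT cells with tetracycline NEAT1 had 87.3 and MALAT1 78.3, and that order may not hold with the shorter length. Reads of shorter forms were not told apart, so this order may not hold for each form. In granules of WDM cells with tetracycline MALAT1 had the higher mean, 84.4 against 67.8.

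The first question of the design was which RNAs are enriched in the granule fraction. NEAT1 was higher in granules than in cytosol in both lines, with and without arsenite. With tetracycline, cytosol libraries of WT held 132, 46.7 and 53.2 CPM of NEAT1, and granule libraries held 2623, 1902 and 1436. In WDM the cytosol libraries held 168, 63.8 and 153.5 CPM and the granule libraries 1816, 1377 and 1440. The groups did not come near each other. The log2 fold change was 4.65 (SE 0.36, adjusted p = 3.4e-11, edgeR's quasi-likelihood test with Benjamini-Hochberg adjustment over all genes, as in all tests that follow) in WT and 3.58 (SE 0.35, adjusted p = 2.1e-09) in WDM. NEAT1 stood above 99.7% and 99.3% of the genes tested. Of all 18141 genes tested, 75.7% were called in WT, 39.5% as higher in granules and 36.2% as lower, so a call alone says little in this comparison. In WDM 71.1% were called, 35.8% as higher.

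With arsenite the cytosol of WT held 144, 181 and 215 CPM of NEAT1 and the granules 2153, 2318 and 2377. WDM cytosol held 266, 161 and 216 CPM and its granules 2418, 1656 and 2229. The log2 fold change was 3.67 (SE 0.35, adjusted p = 1.4e-09) in WT and 3.23 (SE 0.34, adjusted p = 9.4e-09) in WDM, above 99.96% and 99.92% of genes. In these comparisons 70.5% (WT) and 72% (WDM) of all genes were called, 35% and 36.3% as higher, and 35.5% as lower in WT.

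**Figure D1:**
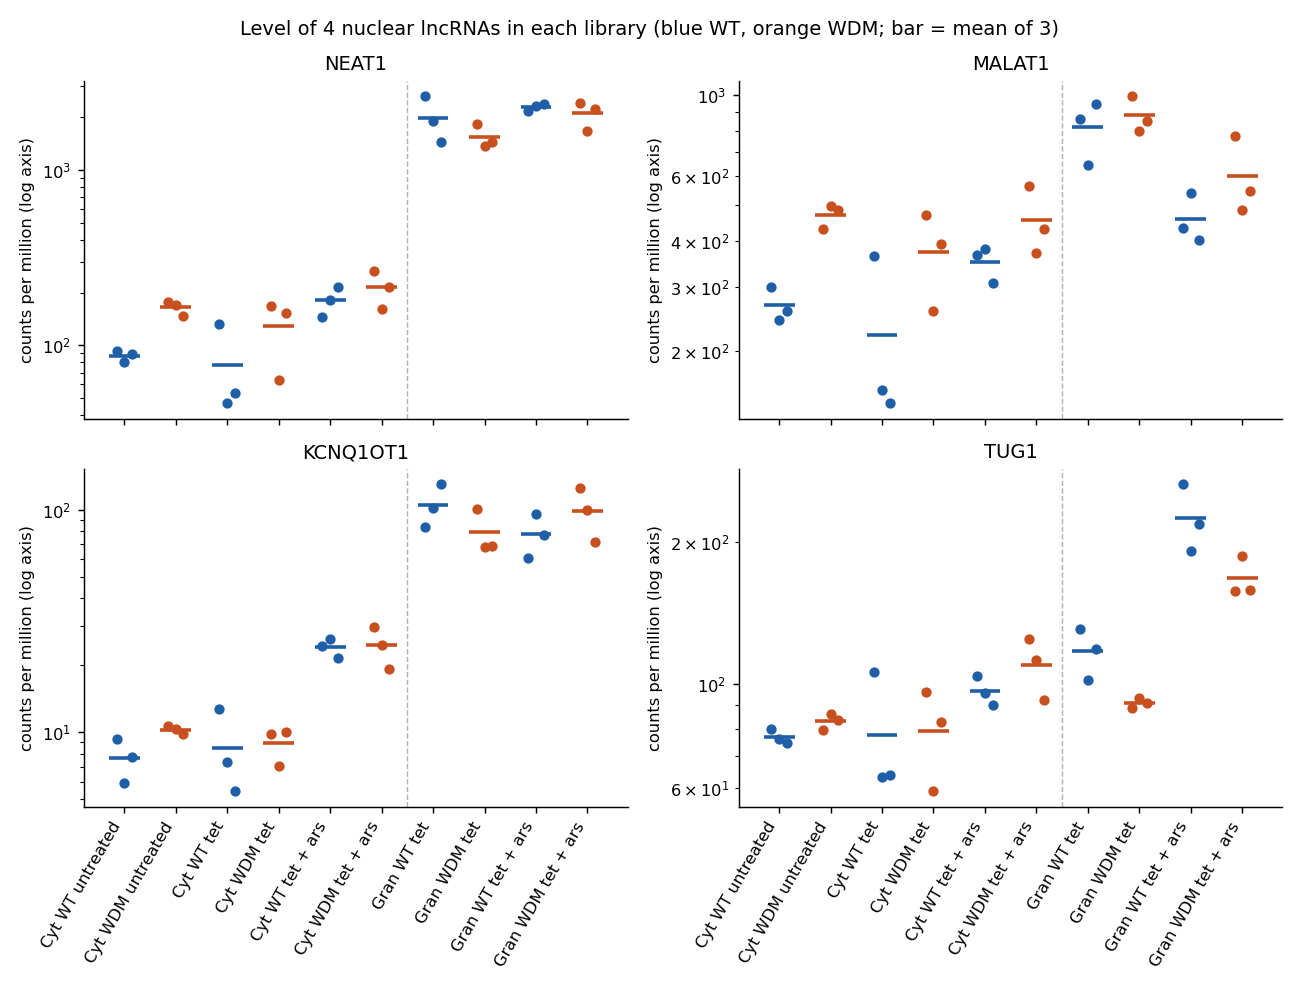
CPM of NEAT1, MALAT1, KCNQ1OT1 and TUG1 in each library (log axes that do not start at 0), with 6 cytosol groups left of the dashed line and 4 granule groups right of it; points are libraries and bars are means of 3. NEAT1 and KCNQ1OT1 have every granule library above every cytosol library, while MALAT1 and TUG1 overlap between fractions.

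KCNQ1OT1 was the second most enriched member without arsenite. WT cytosol with tetracycline held 12.7, 7.34 and 5.43 CPM and WT granules 83.5, 101.5 and 130 CPM. The log2 fold change was 3.60 (SE 0.25, adjusted p = 1.6e-12), above 98.2% of genes, and in WDM 3.13 (SE 0.25, adjusted p = 3.3e-11). With arsenite, WT cytosol held 24.5, 26.3 and 21.7 CPM and WT granules 60.6, 95.1 and 77.0 CPM. The log2 fold change was then 1.68 (SE 0.23, adjusted p = 3.1e-07) in WT and 1.94 (SE 0.23, adjusted p = 2.9e-08) in WDM. KCNQ1, the potassium channel gene on the opposite strand, had 2815 counts in all against 24156 for KCNQ1OT1, and its granule over cytosol log2 fold change lay between 1.81 and 2.65 in the 4 comparisons, each called. How far the readings of the overlapping pair share reads was not tested.

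MALAT1 passed the test in granules without arsenite and missed it with arsenite. WT cytosol with tetracycline held 363, 157 and 144 CPM and WT granules 859, 645 and 946 CPM, a log2 fold change of 1.85 (SE 0.26, adjusted p = 2.8e-07). In WDM it was 1.23 (SE 0.25, adjusted p = 9.9e-05), from 472, 258 and 393 CPM in cytosol to 992, 799 and 852 CPM in granules. With arsenite, WT cytosol held 365, 379 and 307 CPM and WT granules 433, 539 and 403 CPM. That difference was 0.39 (SE 0.25, adjusted p = 0.160), although every WT granule library lay above every WT cytosol library. In WDM it was 0.34 (SE 0.25, adjusted p = 0.220), and there the libraries overlapped. Their approximate 95% intervals ran from -0.10 to 0.87 and from -0.15 to 0.82. Fitted without the low-count filter both passed (0.49, adjusted p = 0.0080, and 0.42, adjusted p = 0.025), and with only the compared groups the WT value did (0.40, adjusted p = 0.0097). By fold change MALAT1 stood above 84.4% (WT) and 79.0% (WDM) of genes without arsenite, and above 60.7% and 58.8% with it.

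TUG1 had its larger difference between fractions with arsenite. WT cytosol with tetracycline held 106, 63.2 and 64.0 CPM and WT granules 131, 102 and 119 CPM, which overlap because of cytosol replicate 1. The log2 fold change was 0.55 (SE 0.18, adjusted p = 0.0072), and it missed the threshold without cytosol replicate 2 (adjusted p = 0.063) or 3 (adjusted p = 0.055). In WDM it was 0.20 (SE 0.18, adjusted p = 0.329), and 0.02 without WDM cytosol replicate 2. With arsenite, WT cytosol held 104, 95.6 and 89.96 CPM and WT granules 266, 192 and 219 CPM, a log2 fold change of 1.24 (SE 0.18, adjusted p = 6.7e-07). In WDM the value was 0.55 (SE 0.18, adjusted p = 0.0070), lost without WDM cytosol replicate 3 of the arsenite group (adjusted p = 0.051). By fold change TUG1 stood above 61.2% (WT) and 55.0% (WDM) of genes without arsenite, and above 85.8% and 65.7% with it.

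**Figure D2:**
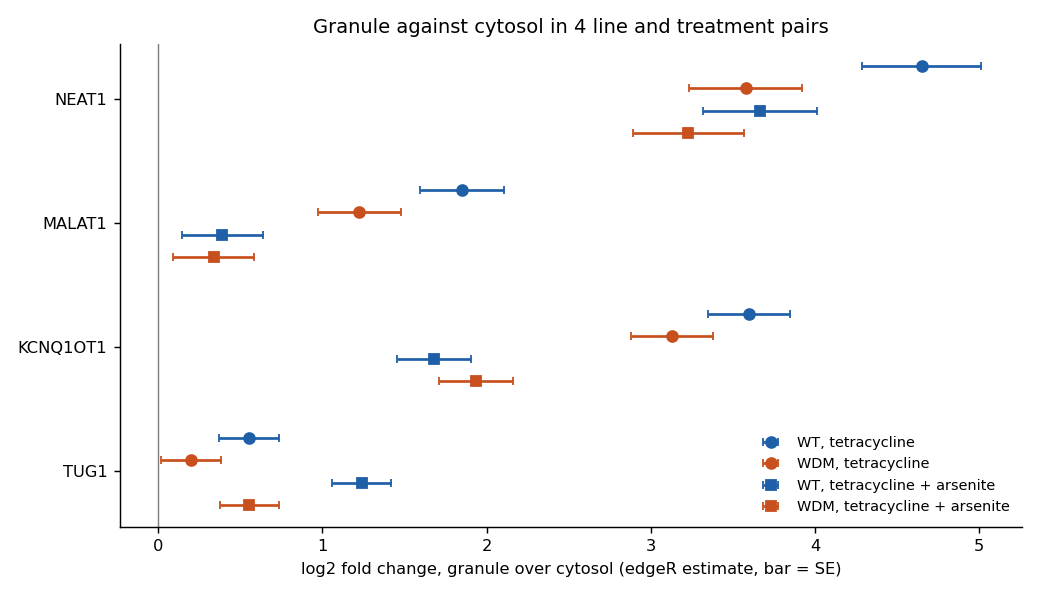
Log2 fold change of granule over cytosol for 4 lncRNAs (edgeR estimates, bars are SE), in WT (blue) and WDM (orange) with tetracycline (circles) or tetracycline and arsenite (squares). NEAT1 lies between 3.23 and 4.65, MALAT1 and KCNQ1OT1 are nearer to 0 with arsenite than without it, and TUG1 is farther from 0 with arsenite.

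Whether arsenite changed a member differently in the fractions was tested as the difference of the arsenite changes (granule minus cytosol). The median of all genes in this measure was -0.21 in WT and -0.17 in WDM, so values relative to it are given too. KCNQ1OT1 had -1.92 in WT (SE 0.33, adjusted p = 1.4e-04), -1.71 relative to the median, and -1.19 in WDM (SE 0.33, adjusted p = 0.0091), -1.02 relative to the median. MALAT1 had -1.46 in WT (SE 0.35, adjusted p = 0.0026), -1.26 relative to the median, and -0.89 in WDM (SE 0.35, adjusted p = 0.064), -0.72 relative to the median. The WDM value passed in 4 of the 6 other fits (adjusted p from 0.0085 to 0.044). TUG1 went the other way in WT, 0.68 (SE 0.25, adjusted p = 0.040), 0.89 relative to the median, and had 0.36 in WDM (adjusted p = 0.328), 0.53 relative to the median. NEAT1 had -0.98 in WT (adjusted p = 0.094), -0.78 relative to the median, and passed there with the replicate block (adjusted p = 0.026). In WDM NEAT1 had -0.35 (adjusted p = 0.607), -0.18 relative to the median. Without WDM cytosol replicate 2, NEAT1 had -0.01 and TUG1 0.54 in WDM. In WT 31.4% of all genes were called in this test and in WDM 24.2%, against 3 and 1 of the 4 members. Without the high WT cytosol replicate 1, NEAT1 passed as well (-1.56, adjusted p = 0.0014) and TUG1 did not (0.44, adjusted p = 0.163).

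Within the cytosol, KCNQ1OT1 rose with arsenite in both lines. The untreated WT libraries held 9.36, 5.89 and 7.72 CPM, those with tetracycline 12.7, 7.34 and 5.43, and those with arsenite 24.5, 26.3 and 21.7. In WDM the same groups held 10.7, 10.3 and 9.80, then 9.79, 7.03 and 10.0, then 29.7, 24.7 and 19.3 CPM. Every library with arsenite lay above every library without it. Against tetracycline alone the log2 fold change was 1.37 in WT (SE 0.21, adjusted p = 1.6e-04) and 1.37 in WDM (SE 0.21, adjusted p = 1.8e-04), above 97.6% and 97.9% of genes, and both passed under every alternative run. The response differed between the lines by -0.01 (SE 0.30, unadjusted p = 0.977 in edgeR's test of the difference).

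NEAT1 also rose with arsenite in WT cytosol, by a log2 fold change of 1.10 (SE 0.35, adjusted p = 0.028), with no overlap of libraries. The call was lost without the low-count filter (adjusted p = 0.094), with only the compared groups (adjusted p = 0.106), and without WT tetracycline replicate 2 or 3 or WT arsenite replicate 2 or 3 (adjusted p from 0.061 to 0.136). In WDM the value was 0.65 (SE 0.34, adjusted p = 0.164), and 0.34 without WDM tetracycline replicate 2. MALAT1 had 0.55 in WT (adjusted p = 0.143) and 0.19 in WDM (adjusted p = 0.624), and TUG1 0.19 (adjusted p = 0.411) and 0.38 (adjusted p = 0.092). Without the high WT tetracycline replicate 1, NEAT1 had 1.69, MALAT1 1.05 (adjusted p = 6.7e-04) and TUG1 0.43 (adjusted p = 0.014) in WT. Without WDM tetracycline replicate 2, TUG1 had 0.22 in WDM. Over all 16670 genes tested, 29% were called in WT and 28.8% in WDM, 13.7% and 14.1% as higher, against 2 and 1 of the 4 members.

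Within the granule fraction, MALAT1 and TUG1 moved in opposite directions with arsenite, in both lines. MALAT1 fell by 0.82 on the log2 scale in WT (SE 0.18, adjusted p = 0.0014) and by 0.62 in WDM (SE 0.18, adjusted p = 0.0086). All arsenite libraries lay below all tetracycline libraries in either line, 403 to 539 against 645 to 946 CPM in WT and 487 to 773 against 799 to 992 CPM in WDM. The WDM call was lost without arsenite replicate 2 (adjusted p = 0.056). TUG1 rose by 0.98 in WT (SE 0.17, adjusted p = 1.3e-04) and by 0.82 in WDM (SE 0.17, adjusted p = 4.6e-04). Its WDM granules went from 88.8, 93.2 and 91.1 CPM to 157, 187 and 159 CPM, again with no overlap.

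NEAT1 and KCNQ1OT1 did not pass in this comparison. NEAT1 had 0.21 in WT (adjusted p = 0.451) and 0.38 in WDM (adjusted p = 0.156). KCNQ1OT1 had -0.43 in WT (adjusted p = 0.079) and 0.25 in WDM (adjusted p = 0.314), and it passed in WT without tetracycline replicate 1 (-0.58, adjusted p = 0.031) or without arsenite replicate 2 (-0.57, adjusted p = 0.040). The difference of KCNQ1OT1 between lines was 0.69 (SE 0.27, adjusted p = 0.301). Of the 18366 genes tested, 30.6% were called in WT and 36.3% in WDM, against 2 of the 4 members in each.

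**Figure D3:**
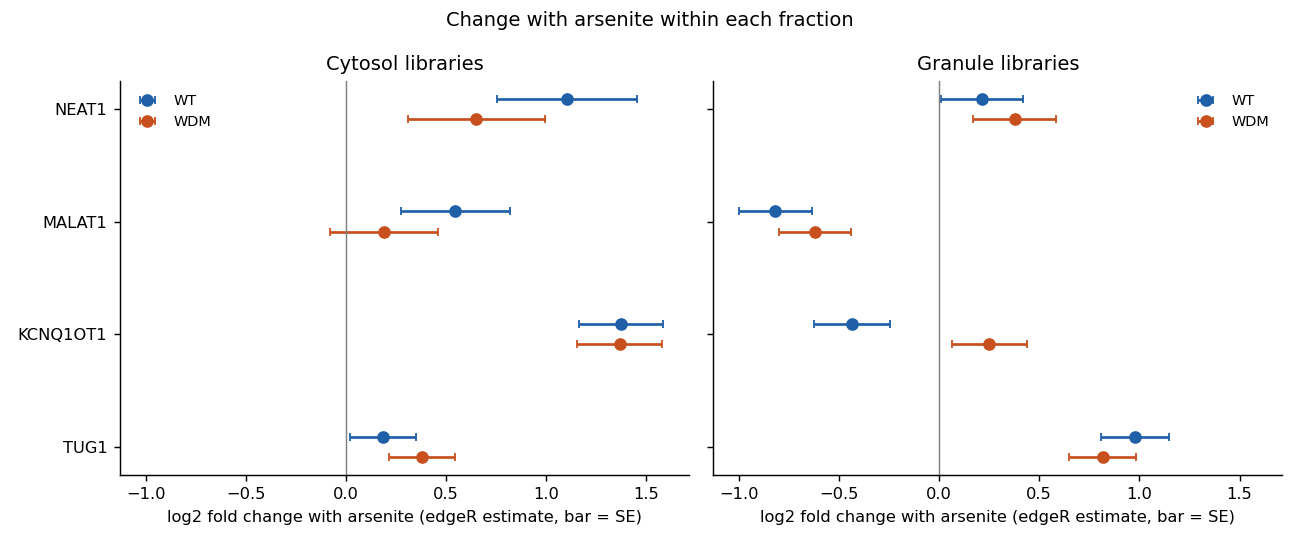
Log2 fold change with arsenite, against tetracycline alone, in cytosol (left) and granule (right) libraries of WT (blue) and WDM (orange) cells (edgeR estimates, bars are SE). KCNQ1OT1 stands at 1.37 in cytosol in both lines, and in granules MALAT1 lies at -0.82 and -0.62 and TUG1 at 0.98 and 0.82.

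The lines were compared next. In untreated cytosol, WDM libraries held 177, 170 and 146.5 CPM of NEAT1 and WT libraries 93.1, 80.2 and 88.9 CPM. For MALAT1 the values were 432, 499 and 484 CPM in WDM and 299, 244 and 257 CPM in WT. The groups did not overlap for NEAT1, MALAT1 or KCNQ1OT1. Still, with the spread estimated over all 18 cytosol libraries no member passed: the log2 difference was 0.88 for NEAT1 (SE 0.35, adjusted p = 0.132), 0.79 for MALAT1 (SE 0.27, adjusted p = 0.085), 0.38 for KCNQ1OT1 (adjusted p = 0.326) and 0.08 for TUG1 (adjusted p = 0.819). With the 6 untreated libraries alone in the fit, the same differences passed for NEAT1 (0.88, adjusted p = 1.1e-12), MALAT1 (0.78, adjusted p = 5.0e-10) and KCNQ1OT1 (0.38, adjusted p = 0.026). Of all genes 9.78% were called in the shared fit, and the count rose from 1631 to 5463 in the fit of the untreated libraries.

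With tetracycline, the WDM minus WT difference in cytosol was 0.69 for NEAT1 (adjusted p = 0.218), 0.72 for MALAT1 (adjusted p = 0.102), 0.03 for KCNQ1OT1 (adjusted p = 0.958) and -0.02 for TUG1 (adjusted p = 0.955, and 0.03 when scaled by library size alone). Without WT replicate 1, NEAT1 had 1.27 (adjusted p = 0.013) and MALAT1 1.22 (adjusted p = 4.5e-04), and without WDM replicate 2 MALAT1 had 0.92 (adjusted p = 0.049). With arsenite the differences were 0.24, 0.36, 0.02 and 0.17 in the order NEAT1, MALAT1, KCNQ1OT1 and TUG1, and the smallest adjusted p was 0.446. Of all genes 12.6% and 10.4% were called in these comparisons. In granules, the only member called between lines was TUG1 with arsenite, -0.53 (SE 0.17, adjusted p = 0.048), from 266, 192 and 219 CPM in WT to 157, 187 and 159 CPM in WDM. That call was lost under 4 of the 6 other ways of fitting (adjusted p from 0.062 to 0.081) and without 4 of the 6 libraries in turn (adjusted p from 0.094 to 0.338). In granules with tetracycline no member passed, and TUG1 had -0.37 (adjusted p = 0.252). Of all genes 5.55% (tetracycline) and 7.95% (arsenite) were called between the lines in granules.

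Tetracycline against no treatment in cytosol gave no call among the members (smallest unadjusted p = 0.263 in edgeR), while 5.31% of all genes were called in WT and 6.3% in WDM. The values ran from -0.24 (MALAT1) to 0.19 (KCNQ1OT1) in WT and from -0.34 (NEAT1) to -0.05 (TUG1) in WDM. Without WT tetracycline replicate 1, MALAT1 had -0.75 (adjusted p = 0.026), NEAT1 -0.73 and TUG1 -0.20 in WT. Without WDM tetracycline replicate 2, NEAT1 had -0.02, MALAT1 -0.11, KCNQ1OT1 -0.04 and TUG1 0.11 in WDM. None of the tests of a difference between lines in the response to tetracycline or arsenite, or in the enrichment in granules, called a member. Those tests called 0 to 3 genes of all, 0.018% for tetracycline by line in cytosol, 0.00551% for line by fraction with and without arsenite, and 0% for arsenite by line in either fraction, where 331 genes in cytosol and 2329 in granules had an unadjusted p under 0.05 in edgeR and DESeq2 called 0 as well. The unadjusted p of NEAT1 for line by fraction with tetracycline was 0.024 and that of TUG1 with arsenite 0.011.

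In cytosol, members deviated together from the mean of their group, in a measure that was not run for other genes. Each library's log2 CPM was set against the mean of its group, and the deviations were compared between members over the 18 cytosol libraries, with a two-sided permutation test within groups (6 pairs of members). Pearson's r between MALAT1 and TUG1 was 0.91 (Spearman's rho 0.85, p = 0.0073, adjusted p = 0.015 by Benjamini-Hochberg over the pairs, and p = 0.0057 for rho, adjusted p = 0.017). This r was 0.82 without the 2 libraries farthest from the median. In every pair those 2 were chosen by the deviations of the first-named member alone, so they can differ between pairs. MALAT1 and KCNQ1OT1 had r = 0.86 (rho 0.84, permutation p = 0.0043 and 0.0034), NEAT1 and MALAT1 0.86 (rho 0.76, permutation p = 0.023 and 0.026), and KCNQ1OT1 and TUG1 0.83 (rho 0.75, permutation p = 0.0050 and 0.012). NEAT1 and KCNQ1OT1 had r = 0.71 (rho 0.68, permutation p = 0.041 and 0.025, adjusted p = 0.0498 and 0.032), falling to 0.51 without the 2 farthest libraries. NEAT1 and TUG1 had r = 0.80 (rho 0.61), which did not pass (permutation p = 0.054 and 0.067). Without the 2 farthest libraries the 4 remaining pairs kept r between 0.58 and 0.75.

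In the 12 granule libraries the same measure gave r between -0.45 (KCNQ1OT1 and TUG1) and 0.60 (MALAT1 and KCNQ1OT1), rho between -0.43 and 0.49, and a smallest permutation p of 0.107 (adjusted p = 0.641). The 2 fractions were not tested against each other. For NEAT1, MALAT1 and TUG1 the cytosol libraries with the greatest deviations were the 2 named above, while for KCNQ1OT1 WT tetracycline replicate 3 (-0.55) and untreated WT replicate 2 (-0.35) lay farther out than WDM tetracycline replicate 2 (-0.33). In WT tetracycline replicate 1, NEAT1 lay 0.94 and TUG1 0.49 above the group's mean log2 CPM, and in WDM tetracycline replicate 2 they lay at -0.89 and -0.40. These 2 libraries also differed from their replicates over all genes with at least 20 counts. In WT, chi-square per degree of freedom was 23.9 and 24.2 for replicate 1 against the others, and 2.81 between replicates 2 and 3. In WDM it was 15.8 and 14.4 for replicate 2, and 6.99 between replicates 1 and 3. WDM cytosol with arsenite also reached 16.5. Members of a library share its depth and its extraction, and the part of these in the relation was not tested.

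**Figure D4:**
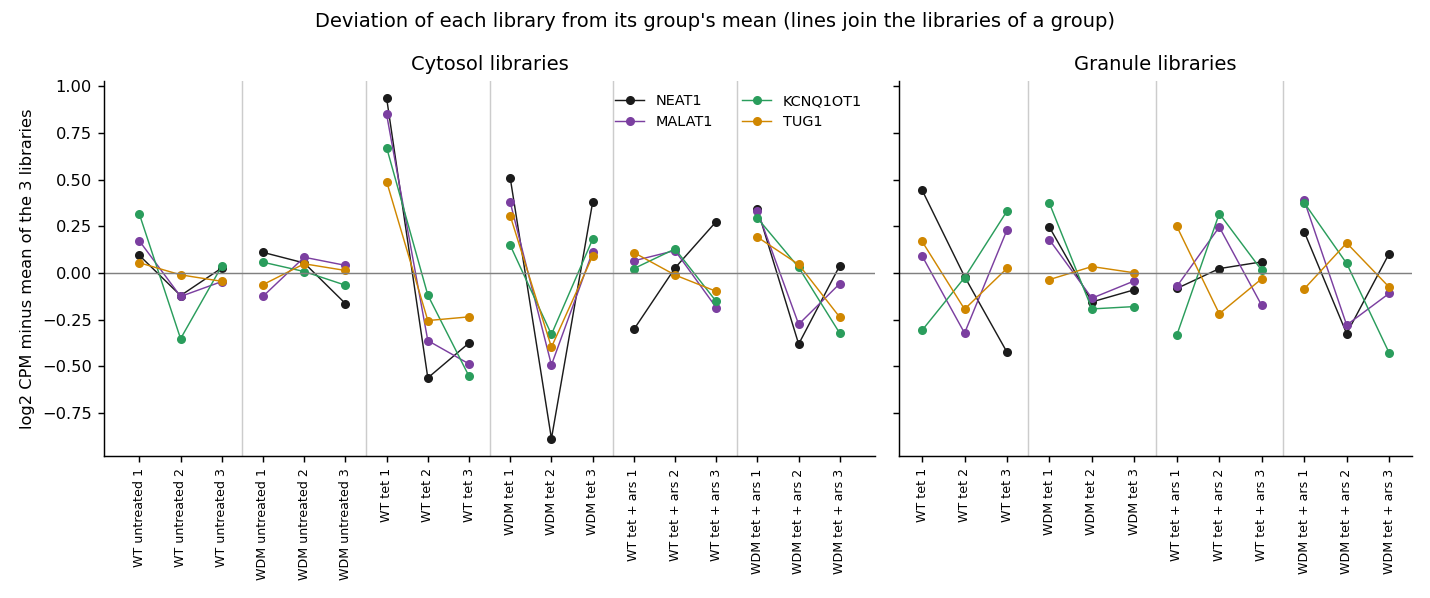
Log2 CPM of each member minus the mean of the 3 libraries of its group, in cytosol (left) and granule (right) libraries; lines join libraries of a group and have no order in time. In cytosol with tetracycline all 4 members are high in WT replicate 1 (0.49 to 0.94) and low in WDM replicate 2, while in granules the lines cross.

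Other lncRNAs were counted from lists of names. Of all genes tested, 39.5% were called higher and 36.2% lower in granules of WT with tetracycline. With arsenite these shares were 35% and 35.5% in WT. Of 12 other lncRNAs associated with chromatin or the nucleus, 8 were tested, and in WT with tetracycline 4 were higher and 1 lower in granules, with a median log2 fold change of 0.40 against 0.07 for all genes tested. HELLPAR had 2.93 (adjusted p = 5.4e-13) and CDKN2B-AS1, the antisense RNA of the CDKN2B locus, 2.55 (adjusted p = 1.3e-09), while HOTAIR, transcribed from the HOXC cluster, had -0.70 (adjusted p = 2.8e-04). With arsenite 2 were higher and 3 lower in WT (median 0.29). Of 12 lncRNAs usually found in the cytoplasm 8 were tested, and in WT with tetracycline 0 were higher and 4 lower (median -0.87). SNHG6 and SNHG8, hosts of small nucleolar RNAs, had -2.09 (adjusted p = 1.2e-11) and -1.87 (adjusted p = 2.9e-10). With arsenite 7 were lower (median -1.89) and 1 higher, NORAD, a cytoplasmic RNA that binds Pumilio proteins, at 1.35 (adjusted p = 3.7e-07).

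In cytosol with arsenite, 3 of the 8 nuclear lncRNAs were higher and 0 lower in each line. Of all genes 13.7% (WT) and 14.1% (WDM) were called higher there. HELLPAR had 1.45 in WT (adjusted p = 4.5e-05). In granules TUG1 and NORAD both rose, NORAD by 1.27 in WT (adjusted p = 1.4e-04), while 6 of the 8 cytoplasmic lncRNAs fell in either line, beside 14.1% of all genes in WT and 17.7% in WDM. Small nuclear and nucleolar RNAs were mostly too low to test. Of 14, 5 were tested between fractions, and in WT with tetracycline 2 were higher in granules, beside 39.5% of all genes. These were SNORD3A (1.21, adjusted p = 3.1e-06) and RNU4-1 (1.496, adjusted p = 0.0046). The summed level of the 14 was 70.2 to 127.5 CPM over all cytosol libraries and 109 to 299.9 CPM over the granule libraries. The part of nuclear RNA in the members' enrichment was not tested.

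**Figure D5:**
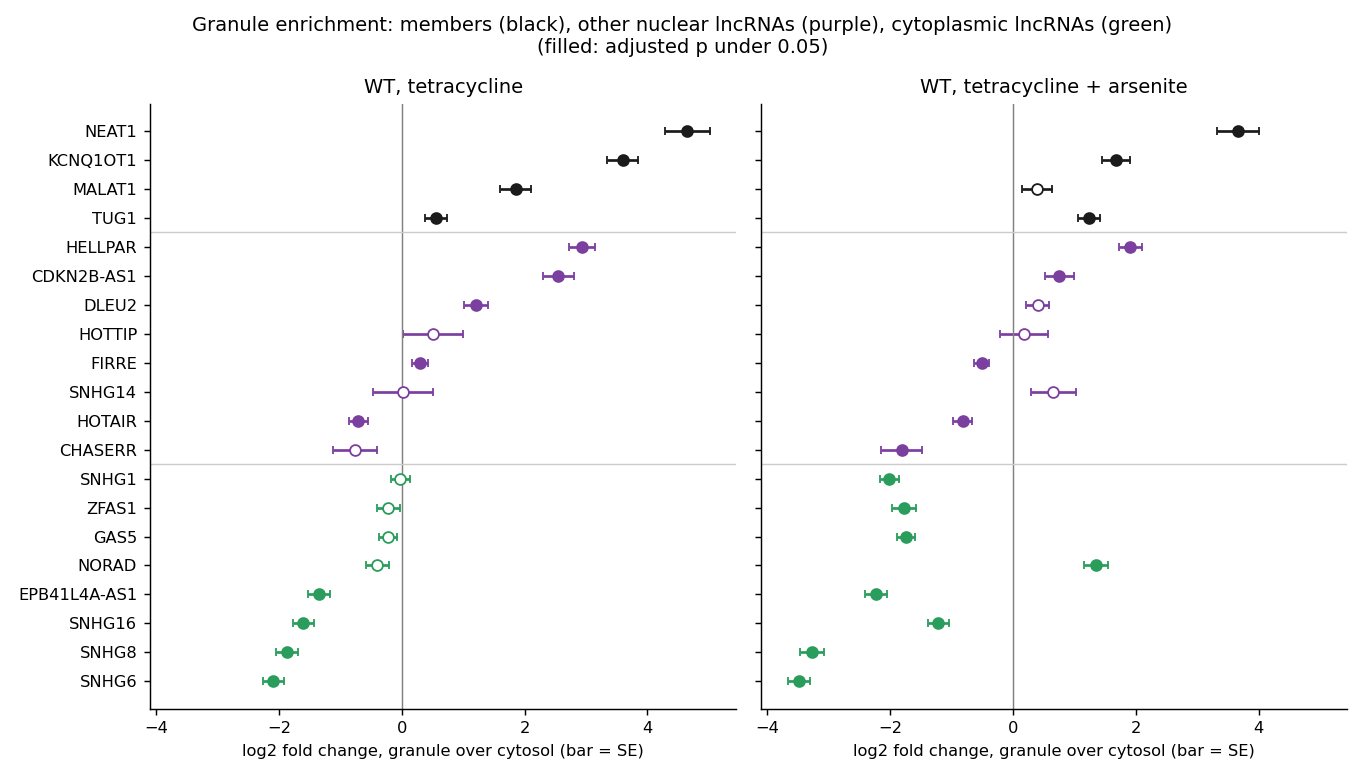
Log2 fold change of granule over cytosol in WT cells with tetracycline (left) and with arsenite added (right) for members (black), other nuclear lncRNAs (purple) and cytoplasmic lncRNAs (green); bars are SE and filled points have an adjusted p under 0.05. The 4 members lie at 0.55 to 4.65 on the left and 0.39 to 3.67 on the right, and 7 of 8 cytoplasmic lncRNAs lie below 0 on the right with NORAD at 1.35.

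The messenger RNAs of proteins that work with the members were counted in the same way, in a comparison (WT with tetracycline) that called 39.5% of all genes higher and 36.2% lower. Of 15 tested genes of paraspeckle proteins, partners of NEAT1, 4 were higher and 7 lower in granules of WT with tetracycline (median -0.15). TAF15 had 1.28 (adjusted p = 4.0e-07), while CIRBP had -1.70 (adjusted p = 3.6e-11) and HNRNPK -1.38 (adjusted p = 9.3e-08). Of 14 nuclear speckle genes 7 were higher and 3 lower (median 0.36). SRRM2 and SON, whose large proteins build speckles, had 2.39 (adjusted p = 3.9e-04) and 1.64 (adjusted p = 1.8e-06), and the splicing factor genes SRSF3 and SRSF2 had -1.91 (adjusted p = 4.8e-11) and -1.31 (adjusted p = 1.9e-07). With arsenite 3 of the speckle genes were higher and 7 lower in WT, where 35% of all genes were called higher and 35.5% lower.

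Genes of nuclear RNA decay gave 1 higher and 5 lower of 10 tested in WT with tetracycline (median -0.30). The higher one was ZFC3H1, part of a complex that hands nuclear RNA to the exosome, at 2.02 (adjusted p = 3.2e-11). Genes of nuclear retention and export gave 4 higher and 4 lower of 13, among them ENY2 at -2.39 (adjusted p = 6.0e-12) and NXT1, a partner of the export receptor NXF1, at -2.38 (adjusted p = 3.3e-12). Within WT cytosol, where arsenite changed 29% of all genes, 2 of the 15 paraspeckle genes were higher and 1 lower, SFPQ among them at 0.44 (adjusted p = 0.0019). Of the 14 speckle genes 2 were higher and 0 lower, and of the 10 decay genes 3 were higher and 1 lower.

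Of 13 genes beside the members, 6 were higher and 3 lower in granules of WT with tetracycline, against 39.5% and 36.2% of all genes, with a median of 0.29. MIATNB, the lncRNA that overlaps the end of MIAT on the same strand with 1.52% of MIAT's exon sequence in its exons, had 8603 counts. Its granule over cytosol log2 fold change was 2.21 in WT with tetracycline (adjusted p = 1.1e-10) and 0.78 with arsenite (adjusted p = 8.6e-04). In cytosol MIATNB rose with arsenite in WT (0.56, adjusted p = 0.0088), as did MORC2, a gene near TUG1 (0.41, adjusted p = 0.0069). In granules MIATNB fell by 0.76 in WT (adjusted p = 0.0061). Around KCNQ1OT1, the imprinted CDKN1C, an inhibitor of cell division, had -1.27 in granules of WT with tetracycline (adjusted p = 0.040) and PHLDA2 -1.36 (adjusted p = 0.0069).

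The genes whose log2 CPM ran most like each member over the 30 libraries were looked up among 11512 other named genes whose mean reached 5 CPM (11513 for MIAT). These values are descriptions, since all libraries share the split by fraction. NEAT1 ran nearest to MED13L, AGAP1 and SCGB2B2 (Pearson's r from 0.988 to 0.989). MALAT1 ran nearest to SEPTIN7P13, LAMTOR5-AS1 and ST3GAL6 (0.953 to 0.964). KCNQ1OT1 ran nearest to SSUH2, DOCK3 and ZSWIM6 (0.991 to 0.992), and TUG1 to NFYA, AP1G1 and SEC24D (0.956 to 0.972). MIAT reached at most 0.65, with RABL2B. Within the 18 cytosol libraries alone the nearest genes were others: TMTC2 (0.963) for NEAT1, FBXW2 (0.968) for MALAT1 and PARGP1 (0.982) for KCNQ1OT1.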

How the data were processed

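RNA was sequenced from 30 libraries of 2 HEK293 lines, in 10 groups of 3 taken from the sample titles. The authors deposited 1 table of raw counts, in which each value is the number of reads assigned to a gene in a library. Trimmomatic, STAR, Picard and featureCounts and the build GRCh38 are named, without versions, in the submitters' processing notes, and the counting parameters are not given in the sources used here. No column of the table was left unmapped.

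Members and gene lists were chosen with earlier results of these data known. CPM used each library's total count. Per-length values used the union of GENCODE v44 exons. Tests used edgeR 4.0.16 (R 4.3.3) with filterByExpr (minimum count 10 and minimum total 15), TMM, group means, robust quasi-likelihood F-test, Benjamini-Hochberg over all genes, and a call under 0.05. The 18 cytosol libraries (16670 genes, biological coefficient of variation 0.103), the 12 granule libraries (18366, 0.161) and the 24 libraries with tetracycline from both fractions (18141, 0.145) were fitted separately, for 15 pairs of groups and 7 interactions. The SE is the log2 fold change over the square root of F, and intervals are approximate. The fitting code was tested on simulated counts. Within-group correlations used 100000 permutations. As alternatives, RLE factors or plain library sizes replaced TMM, the filter was dropped, a replicate block was added, single libraries were omitted, only the compared groups were fitted, and DESeq2 1.42.0 was run.

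Lists name, per comparison, the 2 called genes with the greatest rise and the 2 with the greatest fall, plus genes overlapping a member; a few genes that this rule or the search for like patterns gave are not reported here. Replicate pairs differed beyond sampling noise (chi-square per degree of freedom 1.63 to 40.7 over genes with at least 20 counts), so none was counted as 1 sample.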

Additional observations from a re-analysis of the deposited data

Results flagged for a closer look

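Arsenite changed some members differently in the granule fraction than in cytosol, by a test of that difference (edgeR, log2 scale, granule minus cytosol). The median of all genes in this measure was -0.21 in WT and -0.17 in WDM, and 31.4% and 24.2% of genes were called. In WT cells the difference was -1.46 for MALAT1, which fell in granules (-0.82) and had 0.55 in cytosol, not called. For KCNQ1OT1 the difference was -1.92, with a rise in cytosol (1.37) and -0.43 in granules, not called. It was 0.68 for TUG1 in WT, a call that was lost when scaled by library size alone and in 7 of the 12 fits that left out a library. In WDM cells it was -1.19 for KCNQ1OT1. Groups of 3 libraries were not screened for single outlying values.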

How the results depend on the processing

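Of 88 values of single members in 22 comparisons, 81 to 88 kept their direction and their side of the threshold under each of the 6 other fits, and 625 of 696 when single libraries were left out. Counts of members called that moved by over 1.5 times come first. Between lines in untreated cytosol 0 became 1 with the replicate block and 3 with only the compared groups, where calls among all genes also rose, from 1631 to 5463. With arsenite in cytosol, 2 in WT became 1 without the low-count filter and with only the compared groups. In the latter fit, calls among all genes fell from 4838 to 2737. In WDM 1 became 2 without that filter and with the block. Between lines in arsenite-treated granules 1 became 0 under library size alone, without the filter, with the block and with only the compared groups. For arsenite by fraction in WDM 1 became 2 without the filter, with the block, with DESeq2 and with only the compared groups. Smaller moves were from 3 to 4 between fractions with arsenite (WT and WDM without the filter, WT with only the compared groups), and for arsenite by fraction in WT from 3 to 2 under library size alone and to 4 with the block. In the other fits named so far in this paragraph, calls among all genes moved by at most 1.5 times. The cause of these moves was not tested. With single libraries left out the counts ran from 0 to 2 between lines in cytosol with tetracycline, 0 to 1 for tetracycline in WT, 1 to 4 and 1 to 2 for arsenite in WT and WDM cytosol, 0 to 1 between lines in granules with arsenite, 1 to 2 for arsenite in WDM granules, and 1 to 2 for arsenite by fraction in WDM. They ran from 3 to 4 between fractions in WT with tetracycline, and from 2 to 3 between fractions in WDM with arsenite, for arsenite in WT granules and for arsenite by fraction in WT. WT tetracycline replicate 1 gave the highest value of the first 3.

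Among the values given in the text, the signs that changed belonged to differences that had not passed. The TUG1 difference between lines in cytosol with tetracycline was 0.025 under library size alone and ran from -0.18 to 0.22 with libraries left out. KCNQ1OT1 ran from -0.19 to 0.40 in that comparison, from -0.12 to 0.15 between lines with arsenite, from -0.19 to 0.40 for tetracycline in WT, and from -0.39 to 0.21 for arsenite by line in cytosol. TUG1 ran from -0.21 to 0.11 for tetracycline in WDM, MALAT1 from -0.0081 to 0.40 for arsenite in WDM cytosol, and NEAT1 from -0.0053 to 0.45 for arsenite in WT granules.

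No label says that a replicate number marks a shared culture or batch. In 2 of the 15 pairs of groups every same-numbered pair of samples correlated above 0.1, with r from -0.23 to 0.57 over all. Between fractions with arsenite, in WT and in WDM, every library correlated best with its own number (r from 0.056 to 0.23 and from 0.31 to 0.57), a hint of pairing from the data and not from the design. With the replicate number as a block, MALAT1 passed between lines in untreated cytosol (0.82, adjusted p = 0.048, edgeR), TUG1 for arsenite in WDM cytosol (0.38, adjusted p = 0.037), MALAT1 for arsenite by fraction in WDM (-0.92, adjusted p = 0.019) and NEAT1 in WT (-1.07, adjusted p = 0.026), and TUG1 between lines in granules did not (-0.51, adjusted p = 0.078).

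Among all genes, calls with only the compared groups fell from 2108 to 852 (lines, tetracycline), from 886 to 220 (tetracycline, WT), from 4838 to 2737 and from 4804 to 1921 (arsenite in cytosol). In the interaction of tetracycline by line 3 became 14 without the filter, 6 with the block and 11 with DESeq2, and arsenite by line in granules went from 0 to 44 without the filter (2329 had an unadjusted p under the threshold). Without WT tetracycline replicate 1 the calls in cytosol rose from 2108 to 4573 between lines and from 886 to 1766 for tetracycline. Under library size alone higher and lower calls went from 2279 and 2559 to 3302 and 1002 for arsenite in WT cytosol, and from 2345 and 2459 to 3051 and 1513 in WDM. With the longest transcript in place of all exons, TTTTT per kb was 3.35 for MIAT and between 2.37 and 10.1 for the others. MIAT had too few counts for the test.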
